A study of Caenorhabditis elegans with 12 samples.

Results

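Gonads of great-grandoffspring of worms exposed to the solvent dimethyl sulfoxide (DMSO) were compared with gonads of great-grandoffspring of worms exposed to water. The 8 libraries whose titles name DMSO samples 1 to 4 and water samples 1 to 4 were used, of 12 in the series. In the nematode Caenorhabditis elegans, the first exposed generation (P0) had spent 48 h in 0.1% DMSO or in water, and gonads were dissected with needles from F3 adults at 20 °C, on plates with the bacterium OP50. The remaining 4 libraries, from lineages exposed at P0 to 100 µM bisphenol A (BPA), entered only the estimate of the spread and are given as values where they help to place a gene. Per the labels' protocol, exposure took place at P0 only. Strain, genotype and the age of the adults in days are not stated in the labels. The labels also do not say that the samples of a group were separate cultures, and the p-values below therefore cover the spread among these samples, part of which may be technical.

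DMSO is the vehicle in which BPA and many other compounds are given to worms, and water is the control for the vehicle. The adult hermaphrodite gonad is a pair of tubes in which germ cells pass from a stem cell pool through meiosis to large oocytes that store maternal RNA and protein, wrapped in a thin somatic sheath. Yolk proteins are made in the intestine and taken up by oocytes, and body wall muscle lies next to the gonad. Transcripts of vitellogenin and intestine genes in a dissected gonad are therefore markers of other tissues. Muscle genes are so only in part, because the muscle list shares members with the list of somatic gonad and sheath.

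A single gene passed the test between ancestral DMSO and ancestral water. It was arx-6, a subunit of the Arp2/3 complex, and it was higher in DMSO. Only the 4 DMSO libraries reached 1 RPKM at this gene, so it entered the test through the group where it was high. Of 7570 genes tested, 1 was called higher (0.0132%) and 0 were called lower (limma, two-sided, Benjamini-Hochberg adjusted p under 0.05). At an unadjusted p under 0.05 there were 129 genes (1.7%), 70 of them higher (0.925%) and 59 lower (0.779%). The 4 DMSO values lay above all 4 water values in 39 genes (0.515%) and below all of them in 28 genes (0.37%). Half-widths of the 95% confidence intervals had a median of 0.58 on the log2(RPKM + 1) scale (1.5-fold), and of 0.46 for the 4262 genes averaging 10 RPKM or more (reads per kilobase of transcript per 1e6 mapped). The median difference over all tested genes was -0.02, with 3499 of 7570 genes (46.2%) above 0, and counts of list members above 0 are to be read beside that share.

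Water libraries 1 and 3 stood apart from the other libraries, so the results are given with and without them. Water 1 correlated with the other 11 libraries at a median r of 0.884 and water 3 at 0.919, with 0.931 to 0.944 for the rest (log2 values across genes). The median SD of a gene was 0.43 among the 4 water libraries, 0.29 among the DMSO libraries, and 0.22 between water 2 and 4. The last rests on 2 values per gene, where a median SD runs lower than with 4, so it is not comparable with the others. With water 1 and 3 left out, 6 genes were called higher (0.0793%) and 1 lower (0.0132%), and 225 genes (2.97%) had an unadjusted p under 0.05, 127 higher (1.68%) and 98 lower (1.29%). The median over all tested genes was then 0.06, with 4622 genes (61.1%) above 0. Leaving out water 1 and 3 also sets water libraries of even sample number alone against DMSO libraries of odd and even number, and odd and even libraries differed alike in all groups for some lists. Medians of such lists are therefore also given for sample numbers 1 and 3 alone and for 2 and 4 alone, where both groups hold the same numbers (all tested genes: -0.06 and 0.01, with 45.7% and 52.1% above 0). Estimated depth ran from 13.98 to 33.12 M reads per library (M, 1e6). This estimate is rough, because only 34.8% to 39.7% of low values were within 0.1 of a whole read.

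The gene arx-6 encodes a subunit of the Arp2/3 complex, which nucleates branched actin filaments, and lies on chromosome III. It was listed at 0 in all 4 water libraries and at 24.1, 26.5, 14.8 and 20.0 RPKM in DMSO 1 to 4. Among the BPA libraries, BPA 1 listed it at 0.94 RPKM and BPA 2 to 4 at 0. The DMSO libraries thus stood apart from both other groups at this gene, with no overlap. The log2(RPKM + 1) difference from water was 4.45 (SE 0.26, limma adjusted p = 9.80e-06), and without water 1 and 3 it was 4.45 as well (adjusted p = 0.000404). In sample numbers 1 and 3 alone it did not pass (4.32, adjusted p = 0.136). Its size depends on the pseudocount of 1, since the water group is listed at 0, and no fold is given.

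In the deposited transcript models arx-6 shares its locus with C35D10.1 and C35D10.18, so reads can be divided between these names differently from library to library. C35D10.1 stood at 106.7, 44.7, 43.3 and 47.5 RPKM in water 1 to 4 and at 31.6, 46.5, 36.9 and 29.5 RPKM in DMSO 1 to 4. Water 1 was the high library, and the groups overlapped at DMSO 2. C35D10.18 was listed at 0 in 11 libraries and at 0.0317 RPKM in DMSO 3. Summed over the locus, the level was 60.6 ± 30.8 RPKM in water and 57.5 ± 10.6 RPKM in DMSO (mean ± SD, n = 4 each). These differ by 0.02 on the log2 scale (two-sided exact permutation test, p = 0.971). For water 2 and 4 alone, the locus sum differed by 0.30 (two-sided exact permutation test, p = 0.2, where 4 against 2 libraries can give no p under 0.0667). The overlap of the groups came from water 1, at 106.7 RPKM, while the sums in water 2 to 4 (43.3 to 47.5 RPKM) lay below all 4 DMSO sums (49.4 to 73.0 RPKM). Without water 1 the difference was 0.33 (p = 0.0571 by the same exact permutation test). With values summed per locus it did not pass the test across all loci.

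**Figure D1:**
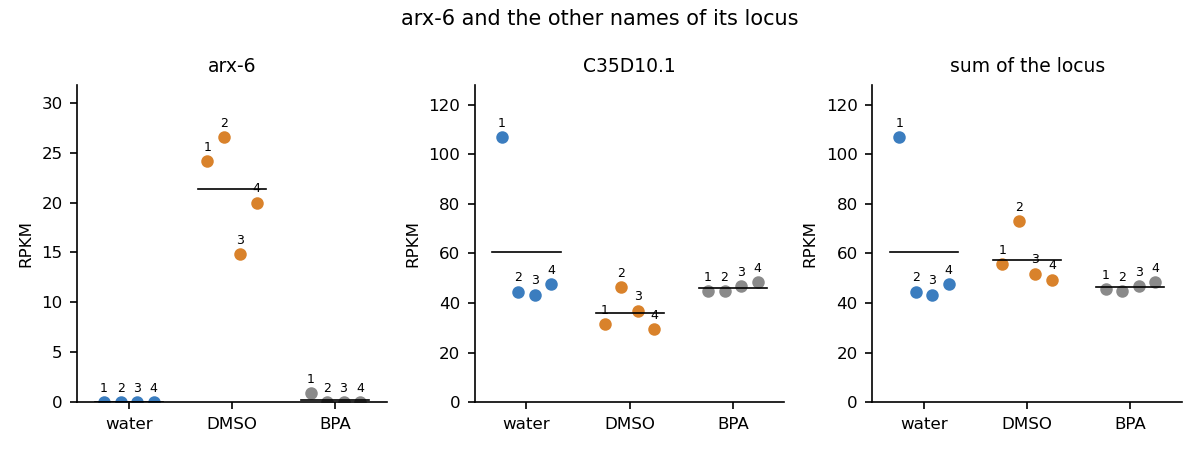
Each point is 1 library, numbered by its sample number, with RPKM on the vertical axis for arx-6, for C35D10.1 and for the sum of their locus, and the line marks the group mean. The 4 DMSO values of arx-6 lie between 14.8 and 26.5 RPKM above water values listed at 0, while the locus sums of the groups overlap through water 1 (106.7 RPKM), the other water sums lying below those of DMSO.

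The other 6 subunits of the Arp2/3 complex did not pass the test. The actin-related protein genes arx-1 and arx-2 differed by -0.03 and 0.07 on the log2 scale, and the remaining subunits arx-3, arx-4, arx-5 and arx-7 by -0.11, -0.25, -0.47 and -0.16. The largest of these differences in size, that of arx-5, came from 15.7, 10.9, 8.86 and 6.84 RPKM in water and 6.96, 5.73, 5.43 and 11.2 RPKM in DMSO. Its groups overlapped, and without water 1 and 3 the difference was -0.26. Over the 21 tested genes of the complex, its activators and actin (a list that also holds the respiratory chain gene nuo-3), 9 lay above 0 and 12 below, with a median of -0.01, and without water 1 and 3 the median was 0.02, with 12 above 0.

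Leaving out water 1 and 3 added 6 genes to arx-6. In each of the 6, the libraries that differed from DMSO were water 2 and 4, while water 1 and 3 lay within the range of DMSO, beyond its far end or, for C27F2.9 in water 1, just short of it (353.1 against 353.5 RPKM), so no such gene separated all 4 water libraries from DMSO. C27F2.9, on chromosome III, was listed at 0 in water 2 and 4, at 353 and 400.0 RPKM in water 1 and 3, and at 353 to 521 RPKM in DMSO. Without water 1 and 3 it differed by 8.82 (SE 0.19, limma adjusted p = 1.00e-08), and with all 4 water libraries by 4.54 (adjusted p = 0.999).

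vps-22, which shares the locus of C27F2.9 and encodes a subunit of the ESCRT-II complex of endosomal sorting, showed the opposite pattern. It stood at 236 and 242 RPKM in water 2 and 4, at 65.8 and 43.1 RPKM in water 1 and 3, and at 45.1 to 69.9 RPKM in DMSO. Water 2 and 4 were thus the high libraries for vps-22 and the ones listed at 0 for its neighbour. Against water 2 and 4 alone vps-22 fell by 2.18 (SE 0.16, limma adjusted p = 0.000404). Together the locus summed to 419, 236, 443 and 242 RPKM in water 1 to 4 and to 399, 531, 569 and 533 RPKM in DMSO 1 to 4. That sum differed by 0.65 with all water libraries (two-sided exact permutation test, p = 0.0857) and by 1.07 without water 1 and 3 (p = 0.0667, the smallest this exact test can give).

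Similar divisions held for rpb-4 and C18E9.4. rpb-4, which encodes a subunit of RNA polymerase II, was listed at 0 in water 2 and 4, at 20.0 and 19.5 RPKM in water 1 and 3, and at 11.7 to 17.996 RPKM in DMSO, a difference of 4.00 without water 1 and 3 (SE 0.28, limma adjusted p = 0.000317). F43E2.1, at the same locus, stood at 22.9 and 23.5 RPKM in water 2 and 4 and at 4.85 to 10.098 RPKM in DMSO. The locus sum differed by -0.09 without water 1 and 3 (exact permutation test, p = 0.6) and by -0.19 with them (p = 0.257). C18E9.4 stood at 0 and 1.88 RPKM in water 2 and 4, at 25.5 and 17.1 RPKM in water 1 and 3, and at 9.73 to 13.2 RPKM in DMSO, with a difference of 2.86 (limma adjusted p = 0.0389). Its locus, shared with C18E9.10, differed by -0.10 (exact permutation test, p = 0.667), and with all water libraries by -0.31 (p = 0.314).

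The remaining 2 genes are alone at their loci. F55A3.7 on chromosome I stood at 12.17 and 9.39 RPKM in water 2 and 4, at 37.5 and 29.3 RPKM in water 1 and 3, and at 36.02, 30.3, 28.3 and 45.1 RPKM in DMSO. Without water 1 and 3 it differed by 1.60 (SE 0.18, limma adjusted p = 0.0125). Of its pair of transcripts, the first was listed at 0 in water 2 and 4 and at 25.8 to 42.4 RPKM in DMSO, while the second was higher in water 2 and 4 (12.17 and 9.39 RPKM) than in DMSO (2.499 to 3.12 RPKM). The non-coding RNA gene anr-58 was listed at 0 in water 2 and 4, at 10.7 and 6.84 RPKM in water 1 and 3, and at 4.22 to 12.63 RPKM in DMSO (2.87, limma adjusted p = 0.0402). In the BPA libraries F55A3.7 stood at 32.2 to 35.6 RPKM and anr-58 at 2.96 to 6.17 RPKM, within or near the DMSO range.

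**Figure D2:**
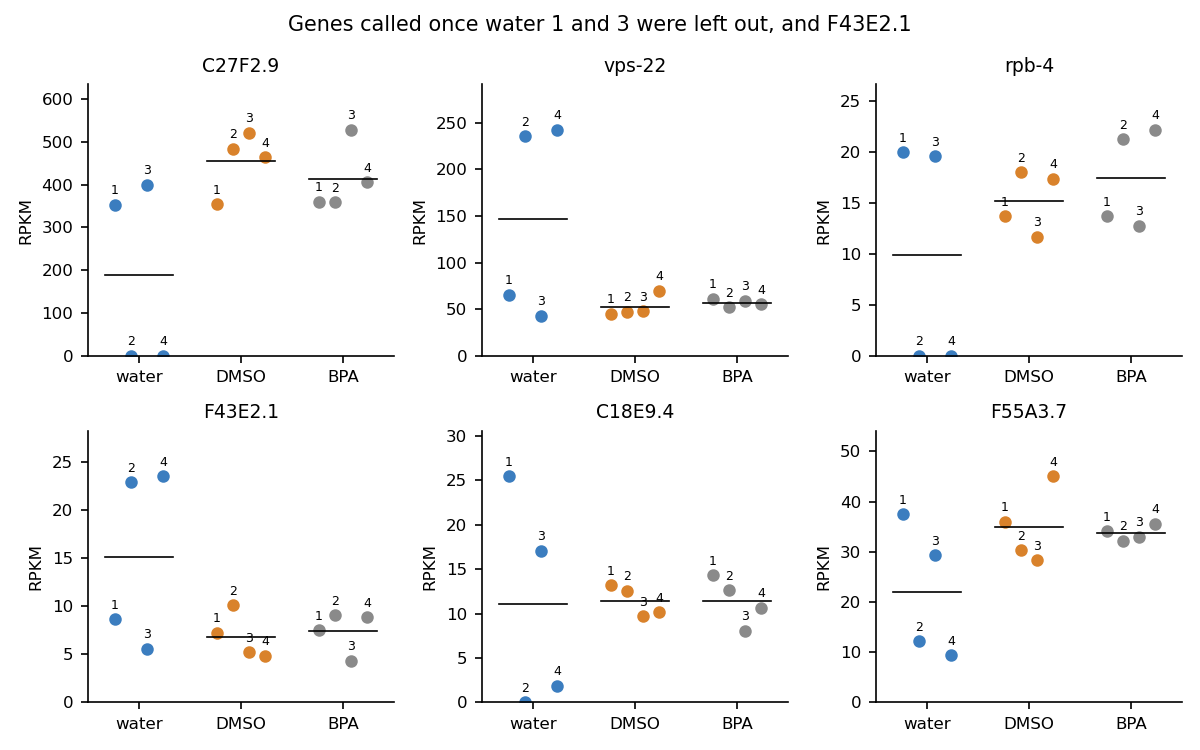
RPKM of 5 genes called once water 1 and 3 were left out, and of F43E2.1, which shares the locus of rpb-4, with 1 point per library numbered by sample number and a line at the group mean. Water 2 and 4 lie apart from water 1 and 3 in every panel, and water 1 and 3 lie on the side of the DMSO and BPA libraries.

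Among genes that did not pass the test, the heat shock genes hsp-70 and hsp-16.48 had some of the smallest unadjusted p-values on the lower side. hsp-70, an inducible chaperone of the 70 kDa class, stood at 7.47, 14.6, 7.74 and 46.6 RPKM in water 1 to 4 and at 2.24, 3.17, 2.22 and 3.65 RPKM in DMSO 1 to 4. All DMSO values lay below all water values, and water 4 was the highest. The log2 difference was -2.02 (SE 0.52, limma adjusted p = 0.999), and -2.85 without water 1 and 3 (adjusted p = 0.251). BPA libraries stood at 1.97 to 7.96 RPKM, overlapping both groups.

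The small heat shock gene hsp-16.48 had values of 5.51, 2.56, 0.35 and 9.94 RPKM in water, against 0, 0.59, 0.97 and 0 RPKM in DMSO. Water 3 lay within the DMSO range, so the groups overlapped. The difference was -1.69 (SE 0.56, limma adjusted p = 0.999), and -2.23 without water 1 and 3 (adjusted p = 0.617). hsp-16.49, a near-identical copy whose reads cannot be separated from those of hsp-16.48 with certainty, had almost the same values (-1.70), and the 2 count as 1 observation. hsp-16.1 differed by -0.59 (SE 0.40), and by -0.82 without water 1 and 3. Other chaperone genes had smaller differences with all water libraries, at -0.01 for the Hsp90 gene daf-21, -0.12 for hsp-1, 0.14 for the endoplasmic reticulum chaperone hsp-4 and 0.15 for the mitochondrial chaperone hsp-60. These became -0.32, 0.50, -0.10 and -0.05 without water 1 and 3. Over the 36 tested genes of heat shock, unfolded protein and oxidative stress, 17 lay above 0 and 19 below, with a median of -0.01, and 2 had an unadjusted p under 0.05. With water 1 and 3 left out, 14 lay above 0, with a median of -0.08.

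On the higher side, zip-4 was alone at its locus and did not rest on values near 0. This gene of a basic leucine zipper transcription factor stood at 6.87, 4.50, 7.74 and 4.74 RPKM in water and at 12.4, 11.3, 8.60 and 14.3 RPKM in DMSO. The groups did not overlap, although DMSO 3 lay close to water 3. Its difference was 0.87 (SE 0.24, limma adjusted p = 0.999), and 1.15 in the absence of water 1 and 3 (adjusted p = 0.617). BPA libraries stood at 5.67 to 10.5 RPKM, across both groups.

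Most other genes with the smallest unadjusted p were low or shared a locus. adr-2, the adenosine deaminase that edits double-stranded RNA in C. elegans, was listed at 0 in water 1, 2 and 4 and at 1.14 RPKM in water 3, against 16.45, 10.6, 7.24 and 2.52 RPKM in DMSO (2.86, SE 0.52, limma adjusted p = 0.573). Its locus, with R151.8 and T20H4.5, summed to 51.8 to 77.3 RPKM in water and 60.2 to 68.8 RPKM in DMSO, a difference of 0.14 (exact permutation test, p = 0.429). pink-1, the kinase gene of mitochondrial quality control, was listed at 0 in all 4 water libraries and at 5.68 to 15.4 RPKM in DMSO, and its locus sum differed by -0.11 (exact permutation test, p = 0.714). At the adr-2 locus water 1, at 77.3 RPKM, was the only water library above the DMSO sums, and water 2 to 4 (51.8 to 54.3 RPKM) lay below all of them. Its sum differed by 0.25 without water 1 and 3 (exact permutation test, p = 0.0667, the smallest possible), and that of pink-1 by -0.12 (p = 0.8). Against water 2 and 4 alone, adr-2 and pink-1 differed by 3.13 and 3.46 (adjusted p = 0.381 and 1.00). With only the DMSO and water libraries in the fit pink-1 passed (limma adjusted p = 0.00263). That fit left out BPA 1 to 4, at 12.1, 6.62, 0 and 0 RPKM, and the water values listed at 0 added no spread.

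Y65B4BL.3 was likewise listed at 0 in water, against 20.7, 26.1, 13.03 and 23.9 RPKM in DMSO, and the BPA libraries were mixed, since BPA 1 and 3 listed it at 0 while BPA 2 stood at 22.8 RPKM and BPA 4 at 25.98 RPKM. Its locus also holds Y65B4BL.4 and Y65B4BL.7. Here the locus sums did part, at 67.8, 69.2, 65.9 and 82.6 RPKM in water and 97.6, 110.3, 89.8 and 118.5 RPKM in DMSO. The difference was 0.54 (two-sided exact permutation test, unadjusted p = 0.0286, the smallest that 4 against 4 libraries can give), and 0.45 without water 1 and 3 (p = 0.0667, again the smallest). The sum includes the gene that led to the test. Y65B4BL.3 itself had a limma adjusted p of 0.999 (4.41, SE 0.99), and passed with only the DMSO and water libraries in the fit (adjusted p = 0.000172). The latter fit left out the mixed BPA values, and the water values listed at 0 added no spread. pas-7, an alpha subunit of the proteasome core, stood at 5.04, 7.15, 3.32 and 4.09 RPKM in water and at 19.6, 9.60, 17.1 and 38.7 RPKM in DMSO (1.80, SE 0.44, limma adjusted p = 0.999, and 1.63 without water 1 and 3). The groups did not overlap, and the other name at this locus, ZK945.12, added nothing to the sum. Of the 30 tested proteasome genes, 17 lay above 0 and 13 below, with a median of 0.06, and without water 1 and 3 the median was 0.02, with 20 above 0.

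Other genes on the higher side were Y102A5C.36, sre-36, Y53G8AR.9 and the piRNA locus 21ur-2599, with differences of 2.17, 1.00, 1.84 and 1.39, and 2.19, 0.84, 1.58 and 0.88 without water 1 and 3. On the lower side were B0035.21, F15E6.3, K05C4.4, F14D2.14, B0228.6, K08H10.14 and C34E7.4, with differences of -1.66, -1.28, -1.91, -2.47, -0.84, -2.74 and -0.92, and -2.03, -0.99, -1.74, -2.72, -0.74, -3.32 and -0.97 without water 1 and 3. Limma adjusted p with all water libraries was 0.922 for B0035.21 and 0.999 for the other genes of both sides, and none passed without water 1 and 3. Of these, sre-36 and K05C4.4 share a locus with other names, and their locus sums differed by -0.13 (exact permutation test, p = 0.743) and -0.08 (p = 0.4), so that of sre-36 lay on the other side of 0. F14D2.14 was listed at 0 in DMSO 1 to 3 and at 10.9 RPKM in DMSO 4, within the water range of 4.12 to 15.4 RPKM. Without DMSO 4 it passed (-3.37, adjusted p = 0.00571), and its locus sum, with F14D2.8, differed by -0.30 with all libraries (exact permutation test, p = 0.543) and by -0.54 without water 1 and 3 (p = 0.267).

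**Figure D3:**
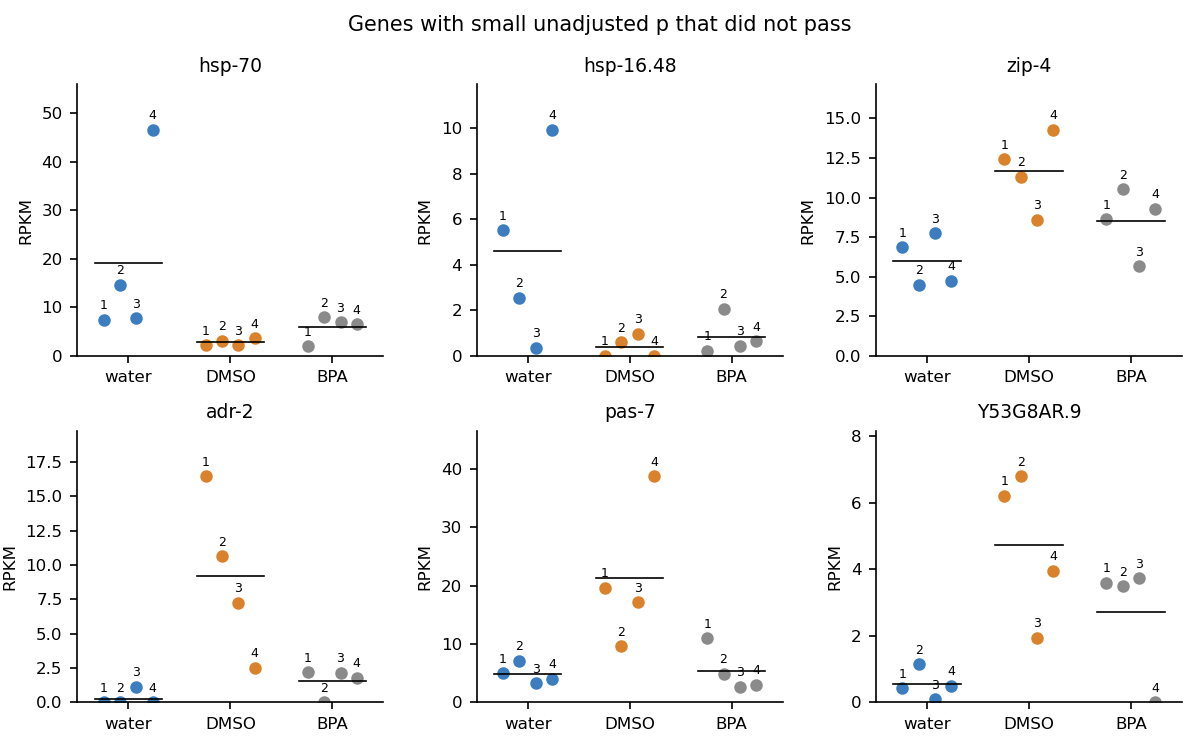
RPKM of 6 genes that had small unadjusted p-values and did not pass the test, with 1 point per library numbered by sample number and a line at the group mean. For hsp-70 the DMSO values (2.22 to 3.65 RPKM) lie below all water values, for zip-4 they lie above, and the BPA values lie between or across the groups.

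C36A4.11 was chosen after its values were seen, because it was the only feature called with values summed per locus in place of per name. This name, on chromosome III, stands at 2 loci of the transcript models. At the second locus water stood at 4.15, 3.82, 3.58 and 3.34 RPKM, DMSO was listed at 0 in 3 libraries and at 0.00148 RPKM in DMSO 3, and BPA stood at 3.08 to 6.29 RPKM. DMSO was thus the group that stood apart, as at arx-6, but in the lower direction (-2.24, SE 0.21, limma adjusted p = 0.00100 over loci, and -2.19, adjusted p = 0.0262, without water 1 and 3). The other locus of the name ranged from 3.64 to 78.7 RPKM in water and from 3.48 to 40.1 RPKM in DMSO. Summed under the name, C36A4.11 differed by -1.34 and did not pass (adjusted p = 0.999). Names at more than 1 locus numbered 137 among the tested genes.

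The 67 genes whose groups did not overlap had mostly small differences, with a median size of 0.56, and 18 of them exceeded 1. They made up 0.885% of tested genes. Exchangeable libraries, 4 against 4, part fully with a probability of 0.0286 per gene, so the set was smaller than that rate would give. The rate is a reference only, because water 1 and 3 stood apart from the other libraries, and no conclusion is drawn from it. Of the 67, 16 (23.9%) share a locus with another name, beside 17.2% of all tested genes. The following were picked after their values were seen, as well expressed examples. akt-1, a kinase of insulin signalling, stood at 21.6, 26.8, 20.8 and 18.3 RPKM in water and 26.99, 29.1, 37.5 and 32.6 RPKM in DMSO (0.51, SE 0.18). xnd-1, a chromatin factor of meiotic crossover placement, stood at 71.7, 84.6, 84.7 and 81.8 RPKM in water and at 100.5, 86.8, 90.8 and 106 RPKM in DMSO (0.25, SE 0.10). In both genes the nearest values of the groups lay close together, and without water 1 and 3 the differences were 0.48 and 0.20.

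The sarcoplasmic reticulum calcium pump gene sca-1 stood at 56.5, 101, 103.7 and 105 RPKM in water and at 109 to 140.4 RPKM in DMSO. The latrophilin gene lat-1 stood at 18.7, 46.2, 48.1 and 38.98 RPKM in water and at 49.8 to 90.3 RPKM in DMSO. In both, water 1 was the lowest library. Without water 1 and 3 their differences went from 0.42 to 0.21 and from 0.82 to 0.58. On the lower side, the microtubule plus-end gene ebp-2 stood at 40.9 to 47.7 RPKM in water and 36.1 to 40.1 RPKM in DMSO (-0.21, SE 0.11, and -0.19 without water 1 and 3), and did not have an unadjusted p under 0.05. Limma adjusted p was 0.999 for each of these genes.

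The histone demethylase genes in the study's title, jmjd-2, jmjd-3.1 and utx-1, differed by less than their libraries varied. jmjd-2 stood at 48.1, 34.3, 40.9 and 40.0 RPKM in water and 41.7, 37.7, 46.2 and 48.7 RPKM in DMSO (0.09, 95% confidence interval -0.22 to 0.41). jmjd-3.1 was low, at 1.197 to 1.79 RPKM in water and 1.08 to 2.24 RPKM in DMSO (0.11, interval -0.35 to 0.57). utx-1 stood at 2.896, 3.98, 5.57 and 2.99 RPKM in water and 5.28, 1.93, 6.16 and 2.04 RPKM in DMSO (-0.09, interval -0.98 to 0.81). The methyltransferase gene met-2 differed by 0.02 (interval -0.44 to 0.47). Without water 1 and 3 the differences were 0.22 for jmjd-2, 0.18 for jmjd-3.1, 0.01 for utx-1 and -0.24 for met-2. Groups overlapped for all 4 genes, and each had a limma adjusted p of 0.999.

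Germline gene lists lay slightly higher in DMSO when all water libraries were used, and moved toward the median of all genes without water 1 and 3. Of 38 tested oocyte and egg genes 33 lay above 0, with a median difference of 0.21, beside -0.02 over all genes, and none was called. Against water 2 and 4 alone the median was 0.13, with 27 above 0, beside 0.06 over all genes. Germline stem cell and translational regulators had a median of 0.19 (24 of 30 above 0), then 0.10 (21 of 30). For germ granule and small RNA genes it was 0.13 (31 of 41) and then -0.01 (17 of 41). Cell cycle and chromosome segregation genes had 0.12 (55 of 77) and then 0.04 (46 of 77). Meiosis genes had 0.05 in both, with 23 of 40 above 0. Of the 40 members, 1 had groups that did not overlap, beside 0.885% of all tested genes: him-8, the X chromosome pairing factor, at 0 to 1.1059 RPKM in water and 1.1073 to 2.12 RPKM in DMSO, so the groups all but touched (0.90, and 0.96 without water 1 and 3). In sample numbers 1 and 3 alone the medians of the oocyte, stem cell, germ granule and cell cycle lists were 0.49, 0.41, 0.33 and 0.23, and in sample numbers 2 and 4 alone they were 0.01, 0.02, -0.06 and 0.02.

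Water 1 was low in many of these germline genes, but not in all. The P granule helicase gene glh-1 stood at 223, 1409, 855 and 855 RPKM in water 1 to 4 and at 810 to 893 RPKM in DMSO. rme-2, which encodes the oocyte receptor for yolk, stood at 633, 2591, 1779 and 1527 RPKM in water and 1459 to 2275 RPKM in DMSO. cgh-1, a germline RNA helicase of stored messenger RNA, stood at 90.5, 630, 522 and 363 RPKM in water and 448 to 540 RPKM in DMSO. Water 1 was below every DMSO library in all 3 genes, while water 2 was above every DMSO library. Summed over the germ granule list, water 1 stood at 2500 RPKM and the other 11 libraries at 4185 to 5708 RPKM. For the meiosis list water 1 had the highest sum of the water libraries (2852 RPKM). It was also the highest water library for the list members perm-2 (2690 RPKM), lab-1 (601 RPKM) and car-1 (805 RPKM). sygl-1, a Notch target that maintains germline stem cells, differed by 0.36 (SE 0.16) with all water libraries and by 0.35 without water 1 and 3. Its groups overlapped at water 3 (397 RPKM), and water 2 and 4 (285 and 338 RPKM) lay below all DMSO libraries (368 to 453 RPKM).

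Markers of other tissues varied widely between libraries of the same group. The 5 vitellogenins summed to 71.9, 26.5, 248 and 34.5 RPKM in water 1 to 4 and to 61.9, 17.4, 917 and 21.9 RPKM in DMSO 1 to 4. DMSO 3 and water 3 were thus the high libraries, and no vitellogenin was listed at 0 in any of the 8. Their median difference was 0.18 with all water libraries and 1.11 without water 1 and 3, and none was called. It was 0.78 in sample numbers 1 and 3 alone (5 of 5 above 0) and -0.51 in 2 and 4 alone (0 of 5). The 29 intestine markers, 14 of them tested, summed to 30.5 to 164 RPKM in water and 15.1 to 423 RPKM in DMSO, with the highest values again in sample 3 of each group. Their median turned from -0.13 (5 of 14 above 0) to 0.39 (10 of 14) without water 1 and 3, and was -0.03 in sample numbers 1 and 3 alone and -0.18 in 2 and 4 alone. The cathepsin gene cpr-6 alone stood at 76.8 RPKM in water 3 and 212 RPKM in DMSO 3, with 4.56 to 17.1 RPKM in the other 6 libraries.

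The 30 muscle markers, 22 of them tested, summed to 364, 220.2, 652 and 174 RPKM in water and to 356, 140.0, 372 and 193 RPKM in DMSO. Samples 1 and 3 were the high ones in both groups. Their median turned from -0.21, with 3 of 22 above 0, to 0.22, with 18 of 22 above 0, when water 1 and 3 were left out. With the same sample numbers in both groups it lay below 0 each time, at -0.36 for numbers 1 and 3 and -0.14 for numbers 2 and 4. The muscle troponin C gene pat-10 ranged from 24.3 to 325 RPKM in water and from 12.4 to 156 RPKM in DMSO. Cuticle collagens, made in the hypodermis, had a median of -0.27 (8 of 33 above 0) and then -0.21 (14 of 33), and summed to 659 RPKM in water 3 against 84.3 to 270 RPKM in the other 7 libraries. In such bulk samples fewer cells of a type and less RNA per cell cannot be told apart, and the part of these tissues in any difference was not tested.

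Sperm transcripts were high in water 3. Its 30 major sperm protein genes summed to 259 RPKM, with 0 to 13.96 RPKM in the other 7 libraries, and none of them was high enough to be tested. The sperm phosphatase gene gsp-3 stood at 55.7 RPKM in water 3 and 0 to 6.36 RPKM elsewhere. Of 7 tested sperm and spermatid genes 4 lay above 0, with a median of 0.04, and 2 without water 1 and 3. Neuron markers were near the limit of detection, with 5 of 27 tested, and summed to 9.28 to 32.8 RPKM in water and 8.86 to 16.96 RPKM in DMSO. The 40 oocyte and egg genes, which mark the labelled tissue, summed to 10317 to 17122 RPKM in water and 14444 to 19615 RPKM in DMSO.

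**Figure D4:**
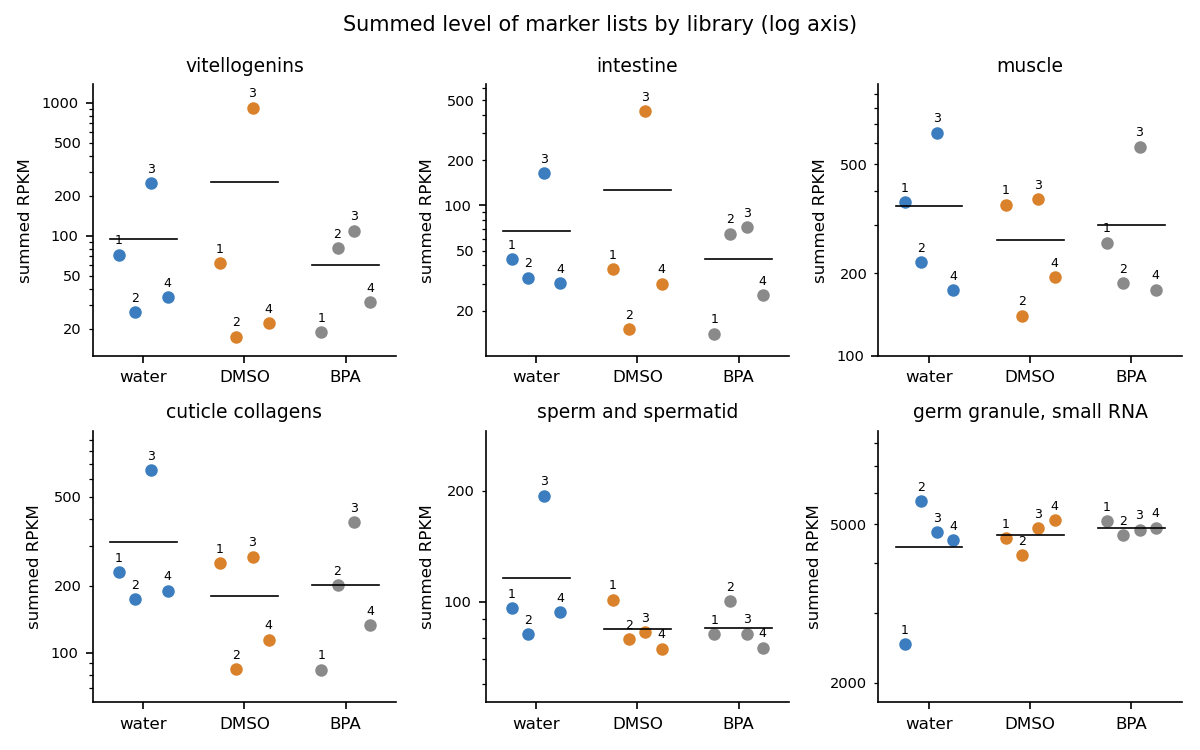
Summed RPKM of 6 marker lists on log axes, with 1 point per library numbered by sample number and a line at the group mean. Vitellogenin and intestine sums are highest in DMSO 3 (917 and 423 RPKM), muscle, collagen and sperm sums in water 3, and the germ granule sum is lowest in water 1 (2500 RPKM).

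Ribosomal protein lists leaned lower with all water libraries and lay closer to the median of all genes without water 1 and 3. Cytosolic ribosomal proteins had a median of -0.19 (15 of 66 above 0) and then -0.02, and mitochondrial ribosomal proteins -0.21 (13 of 53) and then -0.03. In sample numbers 2 and 4 alone both lay above 0, at 0.18 (54 of 66) and 0.10 (35 of 53), and in 1 and 3 alone they were -0.46 and -0.57. The mitochondrial ribosomal gene mrps-28, for example, stood at 46.0 RPKM in water 1 and at 5.72 to 12.03 RPKM in the other 7 libraries. Nuclear-encoded respiratory chain genes had -0.11 (11 of 33) and then -0.04, below the median of all genes both times. Aminoacyl-tRNA synthetases went from above that median, at 0.12 (22 of 29), to below it, at -0.05 (10 of 29), and translation factors had 0.01 (16 of 31) and then -0.03. No member of these lists was called in either comparison.

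Genes of foreign compound handling were mostly too low to be tested. Of cytochrome P450 genes 11 of 76 named in the files were tested, of UDP-glucuronosyltransferases 7 of 65 and of glutathione S-transferases 12 of 48. Their medians were -0.05, 0.03 and -0.04 with all water libraries and -0.02, 0.08 and 0.09 without water 1 and 3, with 0 called. ABC transporters had a median of 0.15, with 21 of 23 above 0, and then 0.08, with 15 of 23. Their most abundant member, wht-2, stood at 98.9, 528, 359 and 391 RPKM in water and at 338 to 506 RPKM in DMSO, so water 1 was the low library here too. Nuclear hormone receptors turned from -0.09 (19 of 65 above 0) to 0.10 (43 of 65, or 66.2%, beside 61.1% of all genes). Their mean log2 level was higher in samples 1 and 3 of every group (2.22 and 2.31 in water, 2.17 and 2.31 in DMSO) than in samples 2 and 4 (1.86 and 1.96, 1.78 and 1.80), and their median was -0.0045 in numbers 1 and 3 alone and -0.15 in 2 and 4 alone. Histone genes, many of them near-identical copies, had medians of 0.35 and 0.50 over 12 tested members, with 9 above 0 each time and 0 called, and medians of 0.97 and -0.10 in sample numbers 1 and 3 and 2 and 4 alone.

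Genes were also grouped by chromosome. X-linked genes, which are largely silenced in germ cells of worms, had a median of -0.08 (288 of 830 above 0) with all water libraries and 0.16 (619 of 830) without water 1 and 3. The 5 autosomes had medians from -0.02 to -0.0028 and then from 0.04 to 0.06. The mean log2 level of X-linked genes was 2.58 and 2.63 in water 1 and 3 and 2.54 and 2.64 in DMSO 1 and 3, against 2.09 and 2.19 in water 2 and 4 and 1.98 in both DMSO 2 and 4. Odd-numbered libraries were thus the high ones in both groups, and the X-linked median was 0.00082 in numbers 1 and 3 alone (417 of 830 above 0) and -0.15 in 2 and 4 alone (239 of 830). No X-linked gene was called with all water libraries or without water 1 and 3. Muscle and intestine sums moved with the same libraries, and their part in the X-linked median was not tested.

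**Figure D5:**
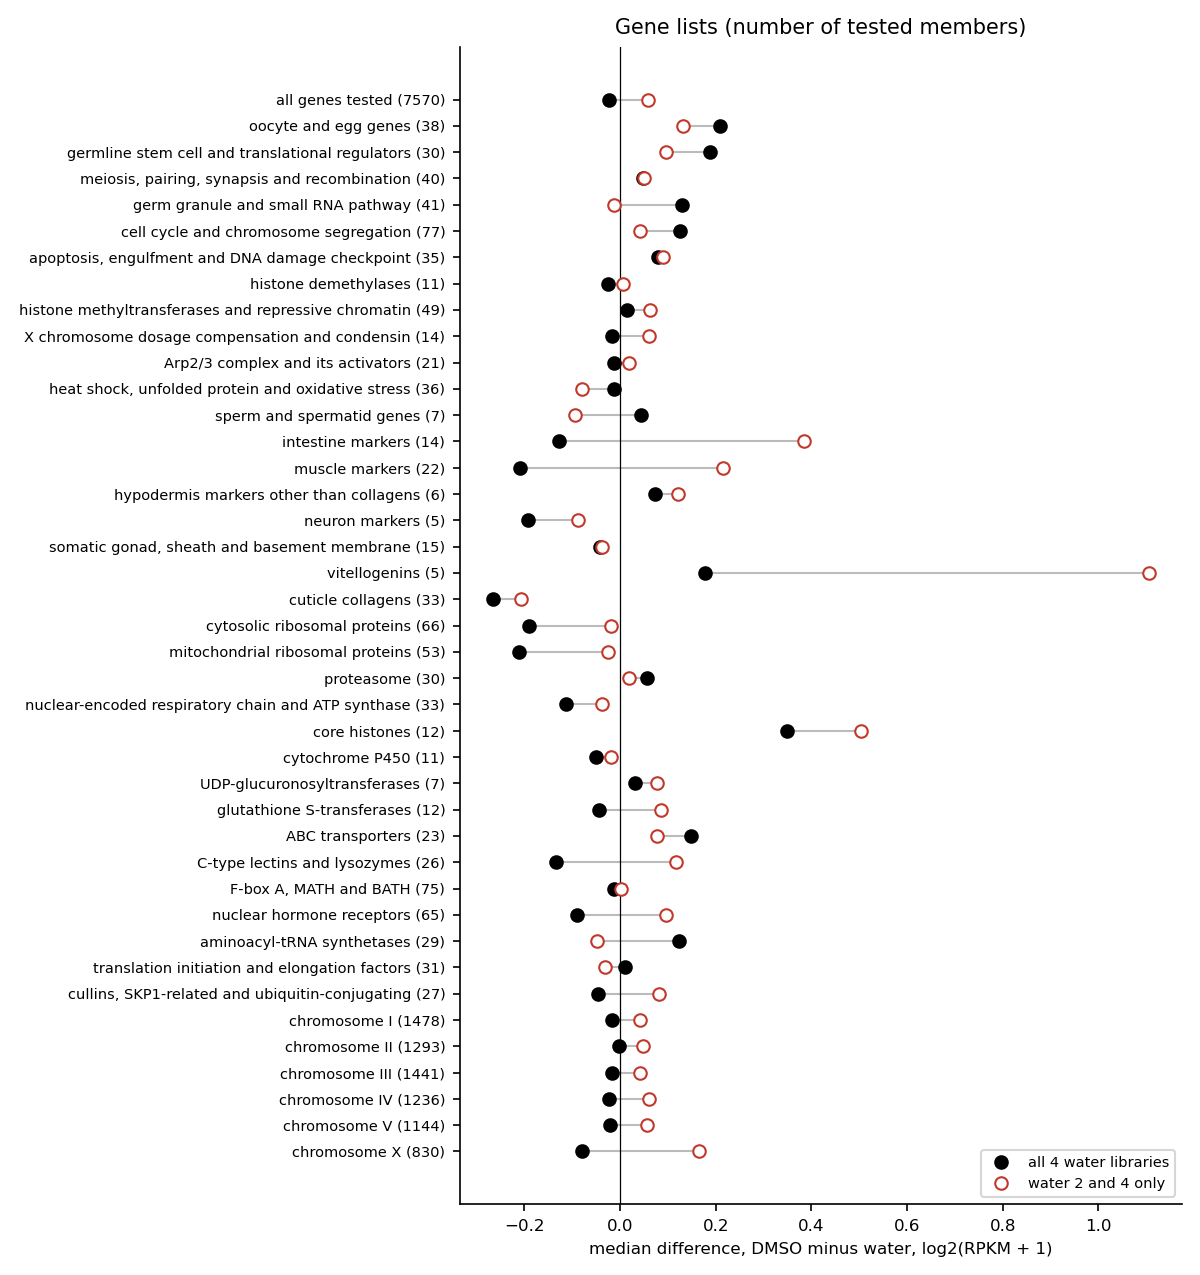
Median difference (DMSO minus water, log2(RPKM + 1)) of each gene list and chromosome, with filled points for all 4 water libraries, open points for water 2 and 4 only, and tested members in brackets. The vitellogenin, intestine and muscle medians move most to the right without water 1 and 3, and germ granule genes move to -0.01.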

How the data were processed

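Each library had 1 table of transcript values from the authors. Per the file headers, 11 of these deposited tables hold RPKM, and that of BPA 1 holds FPKM. For single-end reads (50 bp) both are the same quantity. The submitters' processing notes name HISAT, StringTie and the build ce10. Versions, annotation and filters: not given in the sources used here. Per the labels' protocols, cDNA was made with a SMART-Seq kit and libraries with Nextera XT from 1 ng. Strand was not stated to be kept, so antisense genes are uncertain. Each table lists 49201 transcripts at 37450 loci, 3605 of them with several gene names. Of the tested genes, 1302 (17.2%) share a locus. Zeros may be failed estimates: 84 of 2554 genes above 50 RPKM in 1 of the 8 libraries were listed at 0 in another, 64 of them at shared loci.

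Values were summed per gene name to 40961 genes, leaving out 279 transcripts without a name (0.879% to 2.665% of a library's total). Tested genes reached 1 RPKM in 4 or more of 12 libraries. In R 4.3.3, limma 3.58.1 was run on log2(RPKM + 1) in a single fit of all 12 libraries, with a variance trend, two-sided tests and Benjamini-Hochberg adjustment. Fold changes on this scale understate low genes. Exact permutation tests compared locus sums. Sums and figures were made in Python 3.11.15. Chromosome names came from the Ensembl 115 and RefSeq annotations by gene name, of another build, so no coordinates are given. No library was a copy of another, since no pair shared more than 0.911% of values.

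Genes, lists and tests were chosen with earlier results of these data known. The rule for named genes took the called genes, filled up to 10 in each direction by smallest p, those called without water 1 and 3, names at their loci, the Arp2/3 subunits, 4 fixed genes and the 2 members of each list with the highest mean, of which the text gives the ones that bear on a result. Others are said to be chosen after their values were seen, or are list members given as examples. The procedure was tested on simulated data for this comparison (7570 genes, 10 runs, 200 genes changed). Changed genes were drawn only from those with a mean log2(RPKM + 1) above that of 10 RPKM. Noise was normal, with the same SD in every group. The procedure found 64.8% of genes changed 2-fold, 91.9% of those changed 4-fold and 97.3% of those changed 16-fold, with 4.68% of calls false. These shares do not cover lower genes, listed zeros or the wider spread among water libraries. They also hold only for 200 genes changed at once. With few changed genes the adjustment asks for a smaller p, so the shares would be lower. In the data, hsp-70 at -2.02 (limma unadjusted p = 0.00236) had an adjusted p of 0.999. Alternatives were pseudocounts of 0.1 and 5, no filter, a mean of at least 10 RPKM, only DMSO and water in the fit, array weights, no trend, median-ratio and quantile scaling, sums per locus, sample number as a term or block, sample numbers 1 and 3 or 2 and 4 alone, each library left out, and, chosen after seeing the data, genes alone at their locus.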

Additional observations from a re-analysis of the deposited data

Results flagged for a closer look

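In each group of 4 libraries, a gene or list was marked where its highest or lowest library lay far from the other 3 (Dixon's ratio above its 95% critical value). Of 146 groups examined 11 were marked, 8 of 78 for genes and 3 of 68 for lists. Chance marks about 1 in 20.

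Among genes, adr-2 stood at 1.14 RPKM in water 3 with the other water libraries at 0, Y102A5C.36 at 0.0533 RPKM in water 3, B0228.6 at 1.21 RPKM in water 4, below the others, and C35D10.1 at 107 RPKM in water 1. In DMSO, B0035.21 stood at 0.449 RPKM, F14D2.14 at 10.9 RPKM and vps-22 at 69.9 RPKM in DMSO 4, and K08H10.14 at 4.78 RPKM in DMSO 1, each above the other 3 libraries. Among lists, the mean log2 level of oocyte and egg genes was 6.58 in water 1. In DMSO 2 it was 5.83 for germline stem cell and translational regulators and 5.61 for germ granule genes. Each of these was the lowest of its group.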

How the results depend on the processing

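The number of genes called was 1 and ranged from 1 to 2 when any library was left out. It was 2 without DMSO replicate 4 (F14D2.14 was added). It was 0 among the 4262 genes averaging 10 RPKM or more, which leave out arx-6 (limma, 63 at an unadjusted p under 0.05), and 0 among the 6268 genes alone at their locus, a choice made after seeing the data (95 at an unadjusted p under 0.05). It was 3 with only DMSO and water in the fit, 7 without water replicates 1 and 3, 5 in sample numbers 1 and 3 alone (C16A3.2 and his-30 higher, C35D10.5, pabp-2 and rab-5 lower) and 7 in sample numbers 2 and 4 alone. In these last fits each group had 2 libraries. With values summed per locus it was 1, at C36A4.11. It was 1 in every other setting run. arx-6 passed in 24 of the 25 alternatives that tested it (4.32, adjusted p = 0.136 in sample numbers 1 and 3 alone), with differences from 2.38 (pseudocount 5) to 7.71 (pseudocount 0.1). Of genes at an unadjusted p under 0.05, 54.3% were higher, 68.2% among those averaging 10 RPKM or more, 28.2% with no filter, 64.2% without water replicate 1, 43.2% without DMSO replicate 1, and 34.3% and 43.7% in sample numbers 1 and 3 and 2 and 4 alone.

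The labels do not say whether equal sample numbers pair the libraries. Deviations of DMSO and water libraries of the same number correlated at 0.0393, 0.00359, 0.228 and 0.147. DMSO 1 and DMSO 2 correlated best with another number, and DMSO 3 and DMSO 4 with their own. With the replicate block 1 gene was called (arx-6, 4.45, adjusted p = 0.000228), with 193 at an unadjusted p under 0.05.

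Directions turned for the arx-6 locus sum, from -0.10 to 0.33 with 1 library left out, and for some named genes. Not all of these genes were near 0 in the main fit. There anr-58, C18E9.4, F55A3.7 and rpb-4, all called higher without water 1 and 3, differed by 1.24, 1.02, 0.82 and 1.81. The cause was not tested. In sample numbers 1 and 3 alone the values were -0.82 for anr-58, -0.82 for C18E9.4, -0.0507 for F55A3.7, -0.0153 for jmjd-2, -0.61 for rpb-4 and 0.41 for utx-1. In sample numbers 2 and 4 alone they were 0.10 for arx-1, 0.22 for arx-3, 0.0144 for arx-4, 0.0917 for arx-7, -0.0687 for jmjd-3.1 and -0.27 for met-2. Without water replicates 1 and 3 they were 0.0565 for arx-1, 0.15 for arx-3, 0.0148 for arx-7, -0.24 for met-2 and 0.00649 for utx-1. With array weights they were 0.0138 for arx-1, 0.0229 for arx-3 and -0.0081 for met-2. With 1 library left out they ranged from -0.10 to 0.0566 for arx-1, from -0.26 to 0.0893 for arx-3, from -0.12 to 0.22 for met-2 and from -0.31 to 0.12 for utx-1. Medians of all genes ran from -0.07 (without water replicate 2) to 0.06. With 4 libraries per group, changes smaller than 2-fold were often beyond this design. Where few genes changed, larger changes could be missed as well.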
